A study of Melospiza melodia with 33 samples.

Results

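The genes described here are the 30 rows of the count tables that are named only by a LOC number and that took the highest mean share of total counts over all libraries. They were chosen from 8073 rows with such names, among 21141 gene rows in all, and the values that chose them are the shares of raw counts themselves. The libraries come from whole blood of wild song sparrows (Melospiza melodia), all adult males, at Linesville, Pennsylvania, and number 33 from 25 birds. There were 12 libraries after playback of foreign song recorded at Millbrook, New York (stimuli 1, 4 and 5), 11 after playback of local song recorded at Linesville (stimuli 2, 3 and 6), and 10 from baseline birds, which were not played to. Playback imitated an intruder on the bird's territory, and 8 birds had a library after each song, 4 with foreign song first and 4 with local song first. All birds were wild and untreated apart from the playback. Each song origin was represented by only 3 recordings, so birds that heard the same one share it.

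A LOC number is an identifier that NCBI gives to an annotated gene that has no assigned symbol, so the name says nothing of what the gene makes. Such genes can be among the most heavily transcribed of a tissue. Avian red cells keep their nucleus and make RNA, and in vertebrate blood haemoglobin messenger RNA is usually the most abundant transcript. Haemoglobin messages were not depleted before sequencing, per the labels' protocols. No product of the 30 genes is named in the tables or labels at hand, so none is called a globin or anything else. All 30 names matched the RefSeq gene table of the assembly bMelMel2.pri, which lists 28 as protein coding and 2, LOC134429932 and LOC134431195, as long noncoding RNA. That table was used only for biotypes and for which genes lie next to each other. How reads of near-identical copies or of overlapping genes were assigned is another point not given in the sources used; the split of counts between such copies is uncertain.

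Total counts per library lay between 64.7 and 103.7 M, with a mean of 83.1 ± 7.93 M (SD, n = 33). Markers of red cells were abundant in every library, with a summed level of 11322 to 26877 counts per M (CPM) over 20 erythroid genes. These CPM are scaled by a normalization factor per library. Markers of thrombocytes, the nucleated clotting cells of birds, summed to 719 to 1892 CPM, and those of B cells to 135 to 637 CPM. Markers of T cells summed to 46.5 to 277 CPM, those of heterophils to 16.1 to 101 CPM and those of monocytes to 24.1 to 191 CPM. Red cell markers thus led in every library. Fewer cells of a type and less RNA per cell cannot be told apart in such samples.

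The libraries labelled as the second trial of bird 8439, after local song, and as baseline bird 8450 stood apart from the other 31. Their summed erythroid markers were 11417 and 11322 CPM, against 12351 to 26877 CPM in the others. Each sum was divided by the library's normalization factor, so the high factors of these libraries lower it. The first 8439 library had 14087 CPM at a factor of 0.894, so before this division its sum was below that of the second. The order of the other libraries on unscaled counts was not examined. Summed T cell markers were 214 CPM in the 8439 library and 209 CPM in the 8450 library, against a median of 86.7 CPM and a highest value of 277 CPM in the others. Both T cell sums thus lay inside the range of the others. Thrombocyte markers were highest of all in the 8439 library, at 1892 CPM, against 719 to 1435 CPM in the other 31. The 8450 library, at 948 CPM, was inside that range. The second 8439 library also did not resemble the first library under that bird label. The 2 libraries of a bird deviated together across genes in the other 7 birds with both trials, with r between 0.35 and 0.60, whereas r was -0.17 in bird 8439. The normalization factor of the 8439 library, 1.81, was the highest of the 33, followed by 1.37 in the 8450 library, with a median of 0.978. Many results that rest on these libraries are given with and without them, but not the medians of the marker lists.

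The 30 genes together held 37.5% ± 7.04 of all counts (SD, n = 33), between 22.1% and 50.03% of a library. Foreign song libraries held 23.8% at the lowest, 37.7% at the median and 44.6% at the highest. Local song libraries held 22.8% at the lowest, 38.6% at the median and 50.03% at the highest, and baseline libraries 22.1%, 39.3% and 47.7%. The means were 36.4% ± 6.90 in foreign song (n = 12), 38.5% ± 7.81 in local song (n = 11) and 37.8% ± 6.88 in baseline libraries (n = 10). The means differed by less than the SD within any group, and the ranges overlapped. The lowest local song library was that of bird 8439, and the local song mean was 40.1% ± 6.14 without it (n = 10). The lowest baseline library was that of bird 8450, and the baseline mean was 39.5% ± 4.35 without it (n = 9). The lowest foreign song library, the second of bird 8426, held 23.8%, and no mean without it is given. The means without the lowest library are thus not to be set against that of foreign song. A share is a part of a fixed whole, so when the most abundant genes take less of a library, every other gene takes more without any change of its own.

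**Figure D1:**
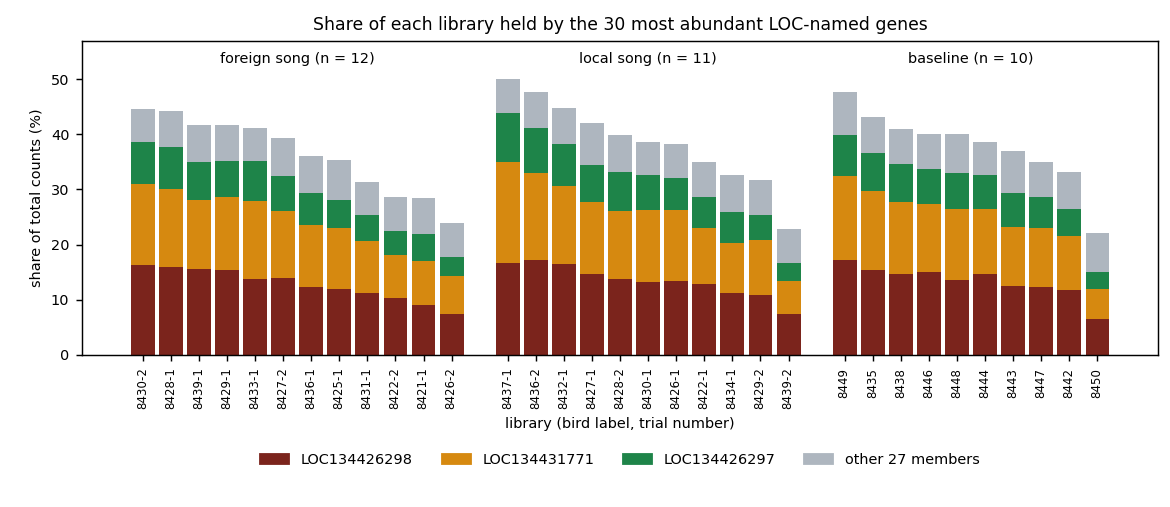
Share of total counts, in percent, held by the 30 LOC-named genes in each of the 33 libraries, stacked as the 3 most abundant genes and the other 27 together, with libraries ordered by height within foreign song, local song and baseline. The 3 genes make up 30.9% of a library on average and carry nearly all of the variation, while the other 27 stay between 5.93% and 7.85%.

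Most of that share, and nearly all of its variation, lay in 3 genes. LOC134426298, LOC134431771 and LOC134426297 together held 30.9% ± 6.97 of counts, between 15.0% and 44.0% (SD, n = 33). The other 27 held 6.58% ± 0.497, between 5.93% and 7.85%. LOC134426298 and LOC134426297 are neighbours with no annotated gene between them, and the nearest genes with symbols are NPRL3, a gene that in other vertebrates flanks the alpha globin genes, and PGAP6. LOC134431771 lies elsewhere, on the side of CHRNA10, a nicotinic acetylcholine receptor subunit gene.

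LOC134426298 was the most abundant of all rows, at 13.2% ± 2.81 of counts (SD, n = 33). Its share was 7.51% at the lowest, 13.03% at the median and 16.4% at the highest in foreign song libraries, 7.43%, 13.4% and 17.2% in local song libraries, and 6.59%, 14.1% and 17.3% in baseline libraries. LOC134431771 followed at 11.7% ± 2.92, with 6.77%, 11.7% and 14.6% in foreign song, 5.99%, 12.9% and 18.3% in local song and 5.33%, 12.1% and 15.2% in baseline libraries, in the same order. LOC134426297 held 6.05% ± 1.37, with 3.48%, 5.97% and 7.67% in foreign song, 3.34%, 6.39% and 8.90% in local song and 3.13%, 6.22% and 7.32% in baseline libraries. For each of the 3, the lowest local song library was that of bird 8439, the lowest baseline library that of bird 8450, and the lowest foreign song library the second trial of bird 8426. The 3 groups overlapped for all 3 genes.

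LOC134417358, next to GCAT, was the last gene above 1% on average, at 1.65% ± 0.291. Its lowest, median and highest shares were 1.17%, 1.57% and 2.09% in foreign song, 1.11%, 1.58% and 2.16% in local song and 1.07%, 1.71% and 2.23% in baseline libraries. LOC134427256, next to ATP6V0D2, a subunit of the vacuolar proton pump, held 0.699%, 0.985% and 1.17% in foreign song, 0.536%, 0.891% and 1.17% in local song and 0.630%, 0.95% and 1.22% in baseline libraries. Both genes were thus steadier than the 3 leading ones, and their highest library exceeded their lowest by 2.09 and 2.29 times.

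LOC134430093 held 0.281%, 0.496% and 0.903% in foreign song, 0.259%, 0.466% and 1.0202% in local song and 0.227%, 0.581% and 0.896% in baseline libraries. LOC134419219 held 0.367%, 0.560% and 0.878% in foreign song, 0.272%, 0.597% and 0.688% in local song and 0.392%, 0.557% and 0.706% in baseline libraries. The groups overlapped for both, and for scale abundant rows with a symbol had lower means, among them CREG1 at 0.495% ± 0.145, ANK1, the red cell ankyrin, at 0.402% ± 0.12, ATRX, a chromatin remodeller, at 0.390% ± 0.315, and SKP1, a ubiquitin ligase subunit, at 0.379% ± 0.0785. The 8 most abundant rows of the whole table therefore all bore LOC numbers.

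LOC134414395, between YAP1 and TMEM123, held 0.150%, 0.271% and 0.395% in foreign song, 0.0587%, 0.216% and 0.358% in local song and 0.156%, 0.287% and 0.480% in baseline libraries. LOC134423708, next to ATP13A4, held 0.145%, 0.215% and 0.253% in foreign song, 0.10%, 0.196% and 0.273% in local song and 0.0994%, 0.197% and 0.266% in baseline libraries. The groups overlapped again, and LOC134414395 reached lowest in the local song library of bird 8432. The other 20 genes had mean shares between 0.0546% (LOC134431195) and 0.178% (LOC134419370).

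**Figure D2:**
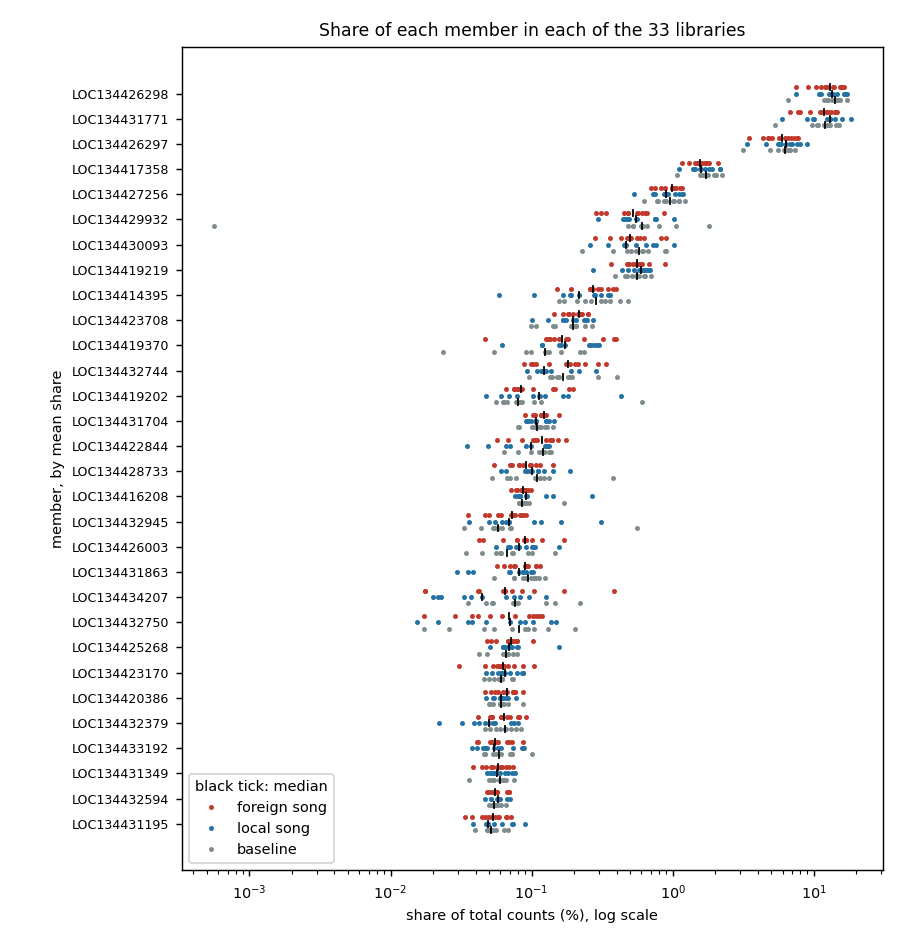
Share of total counts, in percent on a log scale, of each of the 30 genes in each library, with a row per gene ordered by mean share, a colour per group and a black tick at each group's median. The medians of the 3 groups lie close together in nearly every row, and the isolated point far to the left is LOC134429932 in baseline bird 8444.

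The 20 less abundant genes differed widely in how much they varied between libraries. LOC134432594 and LOC134420386 were the steadiest, with a highest share 1.5 and 1.87 times the lowest. LOC134434207, next to CD79A, which encodes a part of the B cell receptor complex, ran from 0.0176% to 0.382%, a ratio of 21.7. LOC134432945, close to TAPBPL, a gene of MHC class I peptide loading, ran from 0.0330% to 0.557%, and LOC134419370, between PARP10 and EPPK1, from 0.0234% to 0.393%. LOC134432750 and LOC134419202, the second of them next to CD59, an inhibitor of complement on cell surfaces, had ratios of 13.2 and 12.7.

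The choice of genes had no sharp edge in abundance at its end. Just inside were LOC134431349 at 0.0580%, LOC134432594 at 0.0570% and LOC134431195 at 0.0546%, and just outside were LOC134414735 at 0.0532%, LOC134420362 at 0.0529% and LOC134433177 at 0.0518%. Rows with a symbol that were at least as abundant as the last of the 30 numbered 216. Counting error was small beside these differences: the 95% Wilson interval of a share reached 8.99% of the value to either side for LOC134429932 in bird 8444 and at most 1.74% for all other genes and libraries. These intervals cover counting error only, since reads copied by PCR are not independent molecules.

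LOC134429932, a long noncoding RNA, was at an abundance in 1 bird that no other library came near. It had 476 counts, or 0.000559% of the library, in baseline bird 8444. The other 32 libraries held 0.285% to 1.81%, with a median of 0.558% and no fewer than 208491 counts, so the level in bird 8444 was 998-fold below their median. Its lowest, median and highest shares were 0.285%, 0.519% and 0.873% in foreign song, 0.294%, 0.550% and 1.03% in local song and 0.000559%, 0.606% and 1.81% in baseline libraries. Neighbouring rows were ordinary in bird 8444. The adjacent LOC134430093 had 0.475% there, against a median of 0.529% in the other libraries, and KIAA0319L, the nearest gene with a symbol, had 0.00765%, against a median of 0.00771%. LOC134429871, on the other side, had 0.00237%, against a median of 0.00304%. Bird 8444 had a single library, so the low value has no second measurement. Over the other 24 birds the log2 levels of LOC134429932 and LOC134430093 had an r of 0.46, given as a description.

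**Figure D3:**
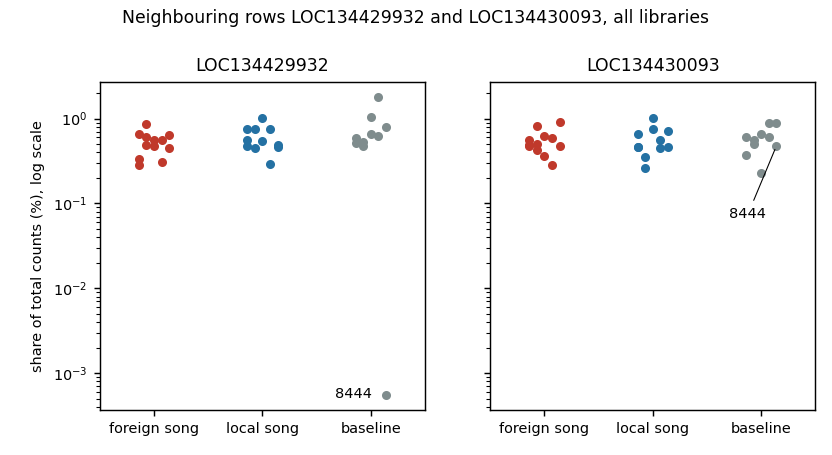
Share of total counts, in percent on a log scale, of the adjacent rows LOC134429932 and LOC134430093 in each foreign song, local song and baseline library, with baseline bird 8444 marked. LOC134429932 is at 0.000559% in bird 8444 and at 0.285% or more elsewhere, while LOC134430093 is at 0.475% in that bird, inside the range of the rest.

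Covariation was measured over 25 libraries, 1 per bird (the first trial or the baseline), on log2 CPM after TMM normalization, which scales libraries on the bulk of their genes. The leading 3 genes rose and fell together almost exactly. Pearson's r was 0.98 for LOC134431771 with LOC134426297, 0.979 for LOC134426298 with LOC134431771 and 0.973 for LOC134426298 with LOC134426297, and Spearman's rho was 0.951, 0.941 and 0.965 in the same order (permutation test with 100000 resamples, two-sided, p = 1e-05 for each, the smallest that these resamples can give, and 0.000544 adjusted over the 435 pairs). Without the 2 birds farthest from the median the 3 values of r were 0.964, 0.958 and 0.961. Within the first foreign trials (n = 8), the first local trials (n = 7) and the baseline birds (n = 10) all 9 values lay between 0.961 and 0.991.

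Over all 435 pairs of the 30 genes, r was positive in 275, above 0.8 in 10, above 0.5 in 71 and below -0.5 in 17, with a median of 0.12. Without bird 8439 there were 9 pairs above 0.8 and 16 below -0.5, and without birds 8439 and 8450 there were 7 of each. The library of bird 8439 used here was its first, not the second one that stood apart. Of the 10 closest pairs, 6 joined LOC134417358 and the leading 3, and the others were LOC134426297 with LOC134419219, LOC134419219 with LOC134432594, LOC134414395 with LOC134431863, and LOC134427256 with LOC134431704. The 216 rows with a symbol that were at least as abundant as the last of the 30 had a median r of 0.24 among themselves. The 30 genes were thus not a set that moved as 1. Their spread over birds was larger than that of the 216 rows and smaller than that of all 12363 rows tested. The median SD on the log2 scale was 0.49 for the 30 genes, 0.37 for the 216 rows and 0.62 for all rows. On shares of total counts, without TMM, 204 pairs were positive and 5 exceeded 0.8.

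**Figure D4:**
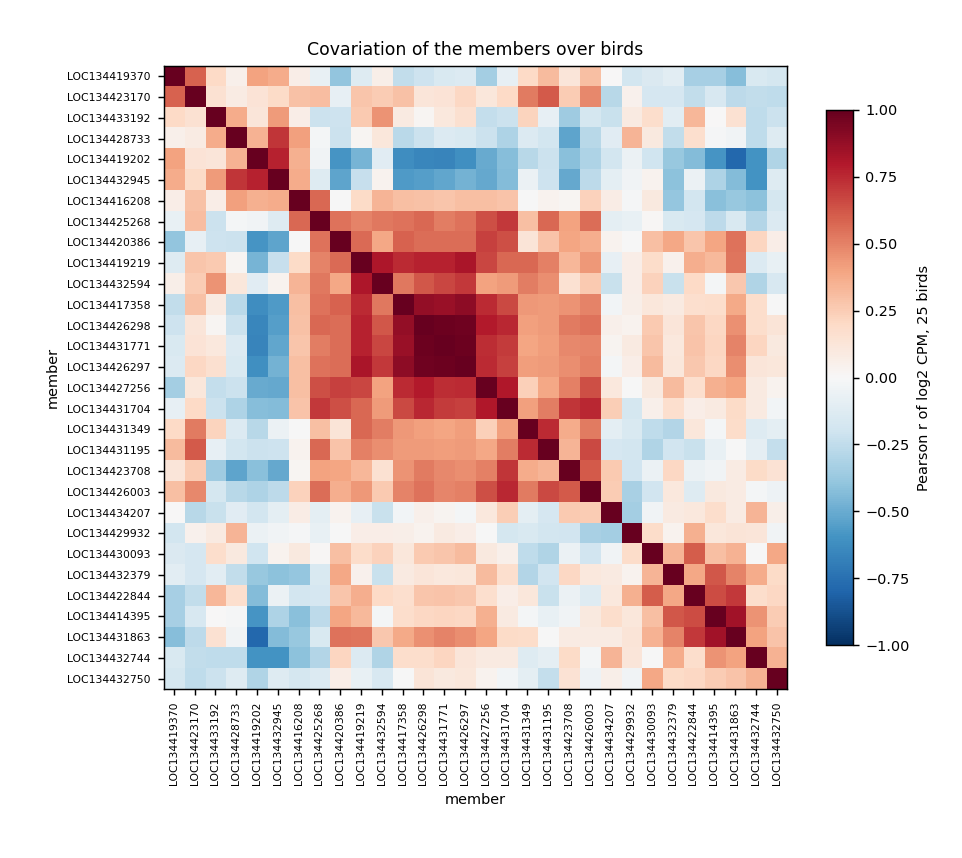
Pearson's r of log2 CPM between each pair of the 30 genes over 25 libraries, 1 per bird, with genes ordered by similarity and colour running from blue at -1 to red at 1. The dark red block in the middle holds LOC134417358, LOC134426298, LOC134431771 and LOC134426297. The blue bands are LOC134419202 and LOC134432945, which had a negative r with that block over the 25 libraries. For LOC134419202 with LOC134431771 and LOC134426298 this rested on birds 8450 and 8421. For LOC134432945 no value without those birds is given.

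The 3 lowest correlations all involved LOC134419202. With LOC134431863 its r was -0.784 (rho -0.684, permutation p = 5e-05, adjusted p = 0.00114), and r was -0.647 without the 2 birds farthest from the median. Within groups the r of that pair was -0.696 in first foreign trials, -0.938 in first local trials and -0.892 in baseline birds. With LOC134431771 its r was -0.661 (rho -0.368, permutation p = 0.00135, adjusted p = 0.014), and with LOC134426298 it was -0.652 (rho -0.322, permutation p = 0.00222, adjusted p = 0.0201). Those 2 relations rested on birds 8450 and 8421: without them r was -0.240 (permutation p = 0.271) and -0.166 (permutation p = 0.449). LOC134419202 held 0.601% of the 8450 library and 0.430% of the second 8439 library, against a median of 0.0856%. LOC134432945 held 0.557% and 0.308% there, against a median of 0.0654%. After scaling by the normalization factor, the 8450 and second 8439 libraries had the 2 lowest sums of red cell markers of the 33. Only the 8450 library was among those correlated here. The part of the cell makeup in these relations was not tested.

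Rows with a symbol that were most like the leading genes were found among 4297 candidates whose mean log2 CPM was 3 or more. Closest to LOC134426298 were BRK1, part of the WAVE actin-regulating complex, with an r of 0.888, CZH18orf32 with 0.880, and EIF4B, a translation initiation factor, with 0.874 (n = 25 birds). Closest to LOC134431771 were BRK1 with 0.908, DHRS7B with 0.879 and ATP5PD, a subunit of mitochondrial ATP synthase, with 0.862. Closest to LOC134426297 were ATP5PD with 0.888, NDUFA2, a subunit of respiratory complex I, with 0.883, and EIF4B with 0.877. These 9 values were 0.722 to 0.832 without the 2 farthest birds and 0.488 to 0.718 on shares of total counts, and they are given as a description.

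Whether a bird kept its own level of a gene was asked in the 8 birds with both trials. For each gene, log2 CPM of the first and second library was correlated over birds and compared with all re-pairings of the birds in an exact permutation test, adjusted over all 11629 rows tested. None of the 30 genes passed an adjusted p of 0.05, where 1.07% of rows did. At an unadjusted p below 0.05 there were 6 of the 30, against 22.2% of all rows. The median r of the 30 was 0.24, against 0.41 for all rows. LOC134432744 had the highest r, 0.938 (rho 0.857, exact permutation p = 0.00126, adjusted p = 0.0586), then LOC134423170 with 0.908 (rho 0.857, exact permutation p = 0.00268, adjusted p = 0.0688) and LOC134431195, the other long noncoding RNA, with 0.895 (rho 0.833, exact permutation p = 0.00124, adjusted p = 0.0586). Without the 2 birds farthest from the median these values of r were 0.745, 0.586 and 0.855. The leading 3 genes showed no such likeness, with an r of -0.318 for LOC134426298, -0.00035 for LOC134431771 and -0.0879 for LOC134426297.

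Without bird 8439 the median r rose for all rows and for the 30 genes alike. Over the remaining 7 birds, 3 of the 30 passed the exact permutation test, where 7.24% of rows did: LOC134432750 with an r of 0.996 (adjusted p = 0.0339), LOC134434207 with 0.994 (adjusted p = 0.0354) and LOC134432744 with 0.935 (adjusted p = 0.0463). The median r of the 30 was then 0.63, close to the 0.61 of all rows. The leading 3 had an r of -0.118, 0.105 and 0.139 in the order of their abundance. On shares of total counts, with all 8 birds, LOC134430093 alone of the 30 passed, where 1.32% of rows did, with an r of 0.938 (exact permutation adjusted p = 0.0464), and 7 of the 30 had an unadjusted p below 0.05, against 20.6% of rows.

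The second trial was compared with the first within those 8 birds, in 1 model of the raw counts with bird and song as terms (edgeR's quasi-likelihood test with Benjamini-Hochberg adjustment). None of the 30 genes passed an adjusted p of 0.05, where 0% of the 11629 rows did, and 666 rows, or 5.73%, had an unadjusted p below 0.05, 3 of them among the 30. DESeq2 called 6 rows and limma-voom 0, none of them among the 30. At an unadjusted p below 0.05 DESeq2 had 8 of the 30, where 1105 of 11629 rows passed. Limma-voom had 7 of the 30, where 1535 of 12363 rows did. On the log2 scale 26 of the 30 genes had a negative value in second against first trials, with a median of -0.29, against 0.038 for all rows. Without bird 8439 the same number were negative, with a median of -0.12, against 0.0035 for all rows. On raw total counts the median of all rows was 0.23, that of the 30 genes was -0.093 and 11 of the 30 were positive. Under both scalings 4 of the 30 lay above the median of all rows. A change of scaling shifts all rows nearly alike, so that count is no separate check.

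The summed share of the 30 genes was 34.8% ± 9.40 in second trials, against 39.7% ± 3.20 in first trials (SD, n = 8 each). It was lower in the second trial in 6 birds and higher in 2. The second library held 23.8%, against 38.3% in the first, in bird 8426, and 31.7%, against 41.7%, in bird 8429. It held 28.7%, against 35.0%, in bird 8422, 39.8%, against 44.1%, in bird 8428 and 39.4%, against 42.1%, in bird 8427. In birds 8436 and 8430 the second library was the higher, with 47.7%, against 36.1%, and 44.6%, against 38.6%. Bird 8439 had the widest gap, 22.8% in the second library, against 41.8% in the first. The mean difference was -4.89 ± 10.1 percentage points, and -2.89 ± 9.02 without bird 8439, so the spread between birds exceeded it in both cases.

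The leading 3 genes had log2 fold changes of -0.47 ± 0.29 (LOC134426298), -0.50 ± 0.29 (LOC134431771) and -0.47 ± 0.28 (LOC134426297) in second against first trials (SE from the test), each lower in 6 of 8 birds, with an adjusted p of 0.633. Without bird 8439 these values were -0.25, -0.27 and -0.25. LOC134426298 held 7.43% at the lowest, 12.3% at the median and 17.2% at the highest in second trials, against 12.4%, 14.0% and 15.9% in first trials. The second trials were thus more spread out than the first, and the 2 sets of libraries overlapped.

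The smallest p-values belonged to less abundant genes. LOC134432744 had a log2 fold change of -0.40 ± 0.14 (p = 0.0115), LOC134434207 one of -0.55 ± 0.21 (p = 0.0244) and LOC134432750 one of -0.54 ± 0.23 (p = 0.0333), all with an adjusted p of 0.633 in edgeR's test. In log2 CPM each was lower in the second trial in 8 of 8 birds. On shares of total counts the count was 6 of 8, 7 of 8 and 6 of 8. LOC134432744 held 0.0884%, 0.133% and 0.238% (lowest, median and highest) in second trials, against 0.12%, 0.154% and 0.286% in first trials. LOC134434207 held 0.0176%, 0.0656% and 0.126% in second trials, against 0.0216%, 0.0800% and 0.17% in first trials, and LOC134432750 held 0.0172%, 0.0721% and 0.113%, against 0.0216%, 0.0891% and 0.150%. The sets overlapped for all 3 genes. Their SD over 25 birds was 0.55, 1.03 and 1.01 on the log2 scale, against 0.31, 0.61 and 0.62 within a bird. The values within a bird contain any shift between trials and include bird 8439. That bird had the widest difference for LOC134434207, -2.24, and for LOC134432750, -2.34, and no such SD without it is given. Without bird 8439 the log2 fold changes were -0.40, -0.33 and -0.31. The 4 genes with a positive value were LOC134419370 at 0.44, LOC134419202 at 0.33, LOC134432945 at 0.23 and LOC134416208 at 0.063.

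**Figure D5:**
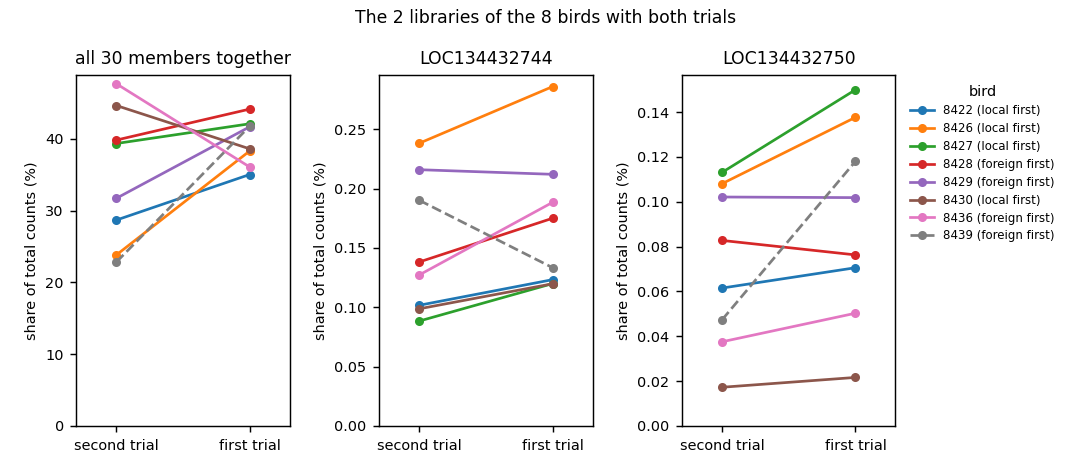
Share of total counts, in percent, in the second and first library of each of the 8 birds with both trials, for all 30 genes together, LOC134432744 and LOC134432750, with a line per bird and bird 8439 dashed. The summed share is lower in the second trial in 6 birds, while for the single genes the order of birds is largely kept except in bird 8439.

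Foreign song was compared with local song in the same model and the same 8 birds. None of the 30 genes passed, where 0% of the 11629 rows did, and 486 rows, or 4.18%, had an unadjusted p below 0.05, none of them among the 30. DESeq2 called 4 rows and limma-voom 0, none among the 30. At an unadjusted p below 0.05 DESeq2 had 0 of the 30, where 837 of 11629 rows passed. Limma-voom had 2 of the 30, where 1424 of 12363 rows did. The summed share was 37.5% ± 7.57 after foreign song, against 37.0% ± 7.41 after local song (SD, n = 8 each), and was higher after foreign song in 4 birds and lower in 4. The mean difference was 0.508 ± 11.4 percentage points, and -2.12 ± 9.26 without bird 8439.

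On the log2 scale 26 of the 30 genes had a positive value for foreign against local song, with a median of 0.17, against -0.006 for all rows. Without bird 8439 it was 17 of the 30, with a median of 0.015. In first trials alone, with 8 foreign and 7 local song libraries of different birds, 6 of the 30 were positive, with a median of -0.13. There 4 of the 30 had an unadjusted p below 0.05 in edgeR's test, where 414 of 11841 rows did. On total counts without TMM, 16 were positive while the median of all rows was -0.15. Under both scalings 26 of the 30 lay above the median of all rows, which again is no separate check. The leading 3 had values of 0.19 ± 0.29 (LOC134426298), 0.13 ± 0.28 (LOC134431771) and 0.17 ± 0.28 (LOC134426297), and these were -0.040, -0.10 and -0.057 without bird 8439. Each was higher after foreign song in 4 of 8 birds.

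The smallest p-values for song were those of LOC134432379 (0.48 ± 0.28, p = 0.111), LOC134431863 (0.40 ± 0.24, p = 0.128) and LOC134426003 (0.27 ± 0.17, p = 0.133), with an adjusted p of 0.775 in edgeR's test. LOC134432379, next to KCNN2, held 0.0505%, 0.0636% and 0.0810% after foreign song, against 0.0219%, 0.0518% and 0.0745% after local song. It was higher after foreign song in 7 of 8 birds in log2 CPM and in 6 of 8 on shares of total counts. LOC134431863 held 0.0572%, 0.0827% and 0.115% after foreign song, against 0.0352%, 0.0760% and 0.103% after local song. It was higher in 5 of 8 birds on either scale. The libraries of the songs overlapped for both genes. Without bird 8439 the log2 fold changes were 0.17 for LOC134432379 and 0.15 for LOC134431863.

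Foreign song libraries were then compared with the baseline birds, 12 against 10. Of the 12, 8 were first and 4 second trials, and the model had no term for trial. None of the 30 genes passed, where 0% of 11817 rows did, and 842 rows, or 7.13%, had an unadjusted p below 0.05, 1 of them among the 30. DESeq2 called 1 row and limma-voom 0, none among the 30. The log2 value was positive for 18 of the 30, with a median of 0.034, against -0.052 for all rows. The leading 3 stood at 0.00044 ± 0.20 (LOC134426298), 0.030 ± 0.21 (LOC134431771) and 0.056 ± 0.20 (LOC134426297). LOC134419370 had the smallest p, with a log2 fold change of 0.72 ± 0.31 (p = 0.0307, adjusted p = 0.687 in edgeR's test). It held 0.0467%, 0.165% and 0.393% in foreign song libraries, against 0.0234%, 0.125% and 0.236% in baseline libraries, so the groups overlapped. LOC134423708 followed at 0.26 ± 0.17 and LOC134428733 at -0.30 ± 0.22, and the second of these values was -0.023 without baseline bird 8450, which had the highest share of LOC134428733, 0.379%.

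Local song libraries were set against the same 10 baseline birds, so the values of the songs against baseline are not independent. None of the 30 genes passed, where 0.00847% of 11800 rows did, the single row being ENTPD1, an enzyme that breaks down extracellular ATP. Unadjusted p-values below 0.05 were found for 702 rows, or 5.95%, 1 of them among the 30. DESeq2 called 18 rows and limma-voom 0, none among the 30. The log2 value was positive for 19 of the 30, with a median of 0.047, against -0.00053 for all rows. The leading 3 stood at 0.089 ± 0.24 (LOC134426298), 0.18 ± 0.26 (LOC134431771) and 0.18 ± 0.24 (LOC134426297). In the same order they were 0.19, 0.29 and 0.29 without bird 8439, -0.0064, 0.037 and 0.056 without local song bird 8437, and -0.0042, 0.084 and 0.094 without baseline bird 8450. LOC134419370 again had the smallest p, with 0.65 ± 0.29 (p = 0.0308, adjusted p = 0.806 in edgeR's test). It held 0.0612%, 0.171% and 0.298% in local song libraries, against the baseline values given above. LOC134423170, next to SLC6A9, followed at 0.25 ± 0.14, and LOC134434207 at -0.66 ± 0.36, with 0.0201%, 0.0447% and 0.126% in local song, against 0.0357%, 0.0763% and 0.221% in baseline libraries. The value of LOC134434207 was -0.38 without baseline bird 8444, and its range with single libraries left out was -0.90 to -0.38.

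In all 4 comparisons no gene of the 30 had a log2 fold change beyond 1 in either direction, and none had groups of libraries that did not overlap in share. Groups without overlap were found for 2 rows, or 0.0172%, in second against first trials, 1 row, or 0.00847%, in local song against baseline, and 0% of rows in the other comparisons. Standard errors of the 30 genes had medians between 0.17 and 0.23 on the log2 scale. The 8 lists of named blood genes also had no gene past the threshold in any of the comparisons. In second against first trials the median log2 value was -0.006 for 20 erythroid genes and -0.18 for 11 genes of globin loci and haem handling, against 0.038 for all rows. It was 0.39 for 17 thrombocyte, 0.23 for 11 heterophil and 0.34 for 10 monocyte genes, and -0.065 for 18 T cell, -0.15 for 15 B cell and -0.28 for 8 antigen presentation genes. In foreign against local song the medians were 0.15 for erythroid, 0.047 for globin locus and haem, -0.14 for thrombocyte, -0.54 for heterophil, -0.72 for monocyte, -0.48 for T cell, -0.20 for B cell and -0.097 for antigen presentation genes. Against baseline the T cell list had a median of -0.94 after foreign song and -0.73 after local song. Summed T cell markers had medians of 75.5 CPM in foreign song, 86.7 CPM in local song and 107 CPM in baseline libraries. Baseline birds 8448 and 8450 had 277 and 209 CPM, and no list median without these birds is given. The medians of the other 7 lists lay between -0.44 and 0.14 after foreign song and between -0.12 and 0.30 after local song. Both paired comparisons and that of local song with baseline include the second library of bird 8439, and no list median without it is given. That library, after local song, had higher sums of monocyte, heterophil, T cell and thrombocyte markers than the bird's first library, after foreign song. Its sums of the other lists were lower after division by the normalization factors, 1.81 in that library and 0.894 in the first. Before this division its erythroid sum was the higher of the 2, as given above. The other lists are not given on unscaled counts, so a fall in their messages cannot be read from these sums. The part of these cell types in the values of the 30 genes was not tested.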

How the data were processed

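Raw counts per gene were deposited by the authors, 1 file per library with 21141 rows. Reads were trimmed with fastp and aligned with STAR, per the submitters' processing notes; versions, build, counting program and strand setting: not given in the sources used here. All 30 genes and the gene lists were chosen with earlier results of these data known. Shares are counts over the library total. Counts were tested with edgeR 4.0.16 in R 4.3.3 (filterByExpr, TMM, robust quasi-likelihood test, Benjamini-Hochberg over all rows, threshold 0.05). DESeq2 1.42.0 and limma-voom (limma 3.58.1) were alternatives, with other scalings, no filter, left-out birds and first trials alone. The standard error is the absolute log2 fold change over the square root of its F. Log2 CPM used a prior count of 1. Methods were tested on simulated data.

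Groups and birds come from the labels, and bird labels pair the 8 birds; own pairs deviated together (r 0.35 to 0.60) except in bird 8439 (-0.17). All libraries carry 1 batch label. Named were the 10 most abundant genes, in each comparison the 3 most abundant and the 3 of smallest p, the 3 highest and 3 lowest correlations, and the 3 rows with a symbol most like each leading gene. Other genes that stood out were chosen after their values were seen. Total counts of 64.7 to 103.7 M per library make counting error small. No sequences or coordinates are given. Both comparisons with baseline use the same 10 birds. Some abundant or neighbouring rows with a symbol are not reported here.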

Additional observations from a re-analysis of the deposited data

Results flagged for a closer look

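Values far from the rest of their set were sought for each of the 30 genes and for their summed share among the 10 baseline libraries, and for the differences within the 8 birds with both trials. A value was marked when its gap to the nearest other value exceeded Dixon's critical share of the whole range, a rule that chance meets in about 1 of 20 sets. It was met 28 times in 91 sets, 21 of them in bird 8439, 6 in bird 8450 and 1 in bird 8443. Sets of 1 bird share its libraries and are not independent.

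Among the baseline libraries, bird 8450 was far below the rest for LOC134426298, with 6.59% of counts, where the next lowest had 11.8%. It was far above them for LOC134419202, with 0.601% (next 0.117%), LOC134432945 with 0.557% (next 0.0712%), LOC134428733 with 0.379% (next 0.132%), LOC134416208 with 0.169% (next 0.0966%) and LOC134433192 with 0.10% (next 0.0722%). Bird 8443 was above the rest for LOC134420386, with 0.0874% (next 0.0682%).

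In bird 8439 the first trial was after foreign song and the second after local song. In log2 CPM the first library exceeded the second by far more than in the other birds for many genes. The normalization factors of these libraries, 0.894 and 1.81, raise every such foreign minus local difference by nearly the same amount. As shares of total counts LOC134430093 held 0.825% after foreign and 0.651% after local song, and LOC134432379 held 0.0810% and 0.0219%. On the log2 CPM scale the foreign minus local difference was 2.90 for LOC134432379, 2.34 for LOC134414395, 2.34 for LOC134432750, 2.24 for LOC134434207, 2.09 for LOC134427256, 2.03 for LOC134419219 and 1.36 for LOC134430093. As second minus first the same libraries gave -2.90 for LOC134432379, -2.34 for LOC134414395, -2.34 for LOC134432750, -2.24 for LOC134434207, -2.09 for LOC134427256, -2.03 for LOC134419219, -1.36 for LOC134430093 and -1.44 for LOC134417358. The remaining marks of this bird concern LOC134422844, LOC134416208 and LOC134432594 in both directions of comparison. Their foreign minus local differences were 2.67 for LOC134422844, 1.12 for LOC134432594 and -0.775 for LOC134416208. LOC134416208 was thus lower in the library after foreign song, against the direction of the others. Whether the second library comes from the same bird as the first was not tested beyond the correlations given above.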

How the results depend on the processing

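The count of the 30 genes past the threshold was 0 in each of the 4 comparisons under every alternative that was run, and with each bird or library left out in turn (0 to 0). The fit with no replicate block, that is without the bird term, also called 0 in both paired comparisons, with 24 of the 30 positive for foreign against local song. The count of all rows called was 0 with edgeR for foreign against local, second against first and foreign against baseline, but 4, 6 and 1 with DESeq2; for local song against baseline it was 1, 18 with DESeq2, 3 without birds 8439 and 8450 (chosen after seeing the data), 0 under the other alternatives and 0 to 2 with single libraries left out.

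For foreign against local song LOC134426298 reversed to -0.040 without bird 8439 and -0.18 in first trials alone, LOC134431771 to -0.010 on total counts, -0.10 without bird 8439 and -0.24 in first trials, LOC134426297 to -0.057 and -0.22, and LOC134426003 to -0.46 in first trials. With single birds left out they ran from -0.040 to 0.42, -0.10 to 0.36, -0.057 to 0.40 and 0.18 to 0.40. For foreign song against baseline LOC134426298 was -0.0035 with TMM computed without the 30 rows, -0.071 on total counts, -0.036 without bird 8439 and -0.13 without birds 8439 and 8450. Bird 8439 enters this comparison with its first library, not the second one that stood apart. LOC134431771 was -0.045 and LOC134426297 was -0.022 on total counts, and they were -0.091 and -0.065 without birds 8439 and 8450. With single libraries left out these 3 ran from -0.095 to 0.064, -0.070 to 0.098 and -0.036 to 0.11, and LOC134426298 for local song against baseline from -0.0064 to 0.19. The cause was not tested.

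The summed share was 6.58% without the leading 3 genes, by construction. The count of genes with likeness between a bird's libraries was 1 on total counts and 3 without bird 8439, and pairs with r above 0.8 numbered 5 on total counts. A choice by median share, 1 library per bird or baseline alone shared 29, 30 and 28 genes with the one used. Both libraries that lack a sequencing lane are outside the paired fits, so that alternative gave no value there. Depth limits none of these values except LOC134429932 in bird 8444.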
